A study of Mus musculus with 29 samples.

Results

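The Rab GTPase genes were followed across sorted retinal bipolar cells and photoreceptors of adult mice. They were taken by name alone, as every gene symbol in the RNA-seq table that consists of Rab, a number and at most one further letter and digit, so that no measured value chose them. The rule found 58 of the 24062 genes listed. Of these, 53 passed the filter on low counts and were tested, and the other 5 (*Rab17*, *Rab20*, *Rab25*, *Rab32* and *Rab44*) reached at most 6.07 normalized counts in any library.

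RNA was sequenced in 15 libraries, 3 from each of 5 populations, and open chromatin was profiled by ATAC-seq, which cuts and tags accessible DNA, in 12 libraries, 2 from each of those populations and from green cones. All bipolar cells (pan-BC) were sorted at postnatal day 44 to 47 from *Otx2*-GFP+/- mice, in which GFP sits at the *Otx2* locus, an allele that all bipolar samples carry, and is also weakly made by photoreceptors. ON bipolar cells (ON-BC) and OFF bipolar cells (OFF-BC) were sorted at postnatal day 42 to 48 from *Otx2*-GFP+/-; *Grm6*-YFP+/+ mice, in which the *Grm6* promoter drives YFP in the ON class, and OFF-BC were sorted in 2 rounds. One bipolar type with weak YFP, BC5D, is probably missing from both gates, and the bipolar ATAC-seq libraries, pan-BC included, were from the same double transgenic genotype at postnatal day 42 to 46. Rods were from *Nrl*-eGFP mice, the cells called blue cones were from *Nrl*-eGFP;NrlKO mice, whose photoreceptors take a short-wavelength cone fate and stand in for native blue cones, and green cones were from *Opn1mw*-GFP mice. All photoreceptor libraries were from postnatal day 56 and were made in an earlier study, so cell class cannot be told apart from study and age in any comparison of bipolar cells with photoreceptors. Each pan-BC RNA library came from one mouse, and animals were pooled for each ON-BC and OFF-BC library.

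Rab proteins are small GTPases that mark membranes. In the GTP-bound form they sit on a given organelle or vesicle and recruit effectors that move, tether or fuse it, and in the GDP-bound form they are returned to the cytosol. Retinal neurons put particular demands on this traffic: photoreceptors renew the membrane of a modified cilium, the outer segment, and both photoreceptors and bipolar cells release glutamate continuously from ribbon synapses, whose vesicles carry RAB3 proteins. Loss of *RAB28* in people causes a cone-rod dystrophy, and loss of *RAB27A* causes a pigment and immune disorder.

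The RNA-seq libraries held 12329548 to 26266746 reads (median 15569580) and the ATAC-seq libraries 4176776 to 12345845 (median 6648830), with the deepest RNA libraries in the photoreceptors. Values are given as normalized counts, which are read counts divided by a size factor for each library. Defining markers mostly followed the labels: the 7 rod markers summed to 1792000 to 2465000 normalized counts in rods and to 3580 to 41850 in the bipolar libraries, the 6 cone markers to 1479000 to 1702000 in blue cones, and the 4 ON markers to 98080 to 110600 in ON-BC against 5688 to 10020 in OFF-BC. Exceptions included *Vsx1*, listed with the OFF markers, which stood at 848 to 1049 in ON-BC and 176 to 351 in OFF-BC. Rod markers summed to 167900 to 258100 in blue cones, most of it *Sag* (160700 to 252600). The 9 bipolar markers summed to 147500 to 157900 in pan-BC, 8272 to 9265 in rods and 32870 to 38070 in blue cones. Of these, *Cabp5* held 25240 to 29460 in blue cones, against 31930 to 43240 in pan-BC. *Otx2* held 6538 to 7638 in photoreceptors, against 9409 to 10650 in pan-BC. Cone markers were also seen in pan-BC (40600 to 66380) and in OFF-BC (20850, 22440 and 90540), and OFF-BC 3 stood apart from the other OFF-BC libraries in that sum. In sorted populations, fewer cells of a type and less RNA per cell cannot be told apart. The kit did not mark strand, and 15 of the 58 genes share exon bases with a gene on the opposite strand, in no case over 20% of their exon length.

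Reads of Rab genes made up a larger share of the bipolar libraries than of rods. Scaled to the total of each library (RPM), they summed to 1958 ± 47.4 RPM (SD, n = 3) in rods and 3158 ± 183 in blue cones, against 3571 ± 9.61 in pan-BC, where ON-BC had 3733 ± 162 and OFF-BC 3580 ± 68.4. The rod libraries reached at most 1993 RPM, below every other library. In normalized counts rods were again lowest, at 38860 ± 1982, but blue cones, at 59920 ± 5518, then stood above pan-BC, at 55630 ± 1223, so the order of blue cones and pan-BC turned with the scale.

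Much of that difference lay in *Rab3a* (chr8:70754703-70758608, plus strand, GRCm38), which places RAB3A on synaptic vesicles. Set per kilobase of exon, the scale used here whenever levels of different genes are compared, *Rab3a* ranked first of the 58 genes in pan-BC (8429 ± 612 normalized counts per kb, SD, n = 3), ON-BC (9121 ± 1053), OFF-BC (7984 ± 882) and blue cones (4775 ± 974). Its share of the summed per-kb level of the family was 33.2% in pan-BC, between 31.8% in OFF-BC and 34.8% in ON-BC, and 19.2% in blue cones. In pan-BC the next genes were *Rab4b*, which acts in recycling from early endosomes (1502 ± 162), *Rab14*, of the Golgi and endosomes (1319 ± 44.1), *Rab1b*, of transport from the endoplasmic reticulum to the Golgi (1295 ± 45.8), and *Rab18*, of the endoplasmic reticulum and lipid droplets (1265 ± 38.8). Neighbours in that order overlapped in their spread after *Rab3a*. In rods *Rab3a* held rank 4 at 1130 ± 66.8, and the first place went to *Rab28* (2471 ± 302), whose product works at the photoreceptor outer segment and cilium. *Rab14* (1413 ± 118) and *Rab1*, the gene now called *Rab1a* (1221 ± 115), lay between them, each within the spread of its neighbour but for *Rab28*. In blue cones *Rab28* was second (2881 ± 319.5).

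**Figure D1:**
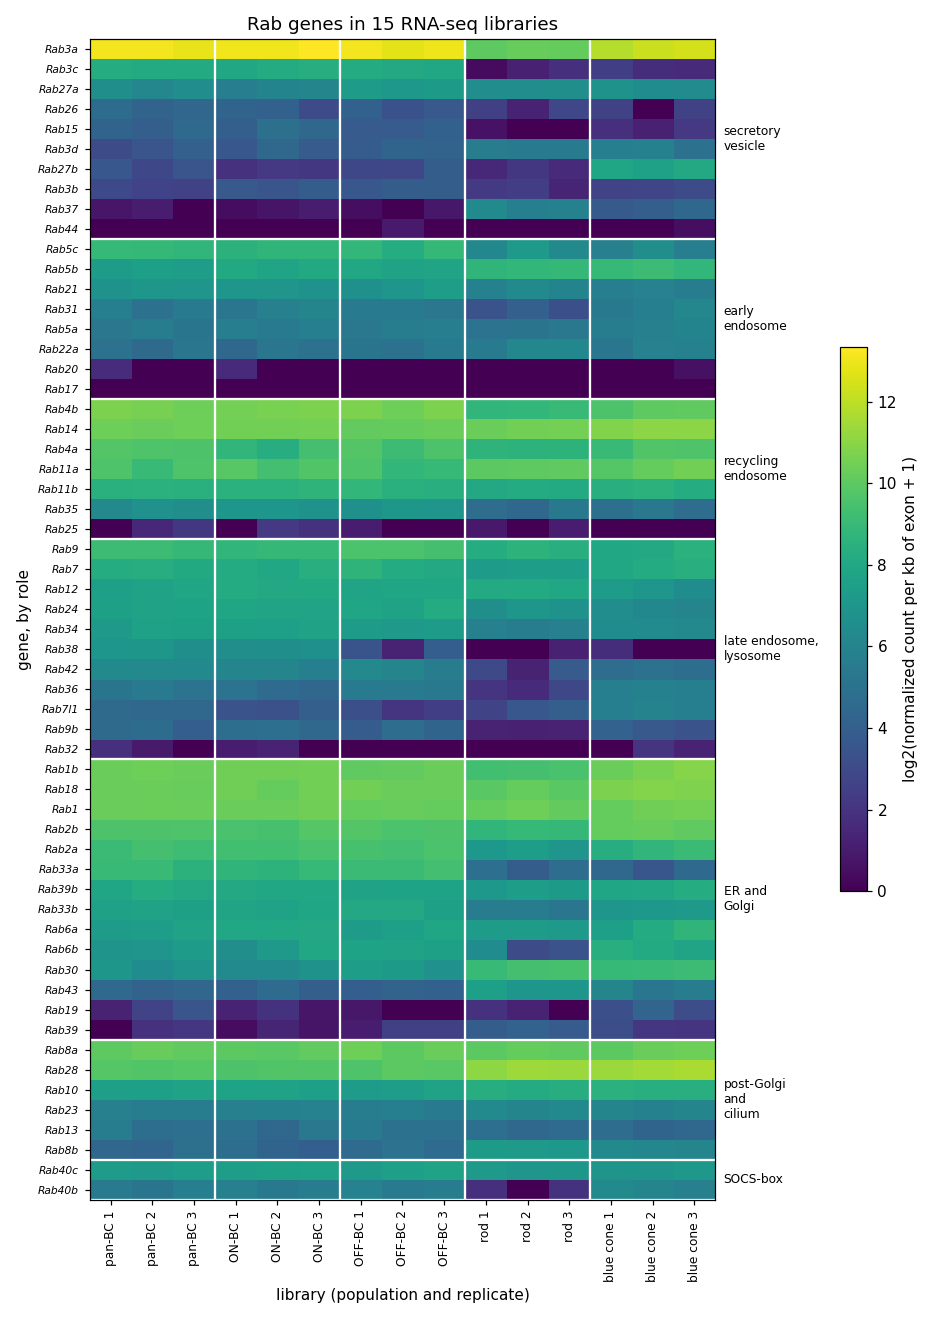
Heat map of every Rab gene (rows, grouped by the compartment its product serves) in each of the 15 RNA-seq libraries (columns, by population), coloured by log2(normalized count per kb of exon + 1). *Rab3a* is the brightest row in the bipolar and blue cone columns, and *Rab28* is brightest in rods. *Rab38*, *Rab3c* and *Rab33a* darken from pan-BC to the photoreceptor columns.

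To compare populations, each gene was fitted on log2(normalized count + 1) over all 15 libraries, and a gene is called higher or lower where its difference exceeded 1 log2 unit (a 2-fold change) at an adjusted p threshold of 0.05 over all 14024 genes tested (limma). Differences are given on that log2 scale, which understates changes of low genes. The 4 comparisons share libraries, and so each is reported with its own values.

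Between the ON and OFF classes the family was nearly flat. Of the 53 tested genes, 1 was called higher in ON-BC, where 2.95% of all genes were called, and 0 were called lower, where 3.6% of all genes were; the median difference over the 53 was 0.03, beside -0.015 over all genes. At an unadjusted p under 0.05 in the same test, 1 gene (*Rab27a*) was lower, and edgeR and DESeq2 called 0 lower.

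The called gene was *Rab38* (chr7:88430273-88491572, plus strand), which serves the biogenesis of lysosome-related organelles such as the melanosome. It stood at 152, 155 and 161 normalized counts in the 3 ON-BC libraries and at 15.7, 2.4 and 23.2 in OFF-BC. The groups did not overlap, and ON-BC was higher (log2 difference 3.82 ± 0.70 (SE), adjusted p = 0.0097). Without OFF-BC 2 the difference was 2.97 and was no longer called (adjusted p = 0.0673), and with a pseudocount of 0.25 it was 3.97 (adjusted p = 0.113); edgeR and DESeq2 called it (adjusted p = 0.000233 and 8.86e-08), and these were 2 losses in 17 alternatives, over which the adjusted p ran from 8.86e-08 to 0.113. Pan-BC held 200, 207 and 155, whereas rods held 0, 0 and 2.16 and blue cones 3.76, 0 and 0, so nearly all reads of the gene were from libraries that contain ON-BC. As a share of the ON-BC mean, *Rab38* in pan-BC was 128.3%, 132.7% and 99.7%, beside 85.7%, 78.9% and 82.1% for the summed ON markers. In the OFF-BC libraries *Rab38* was 10.04%, 1.54% and 14.9%, beside 6.22%, 5.42% and 9.56% for those markers. Most of that ON marker sum in OFF-BC was *Trpm1*, at 5930, 5394 and 7567, against 51660 to 59740 in ON-BC. *Grm6* held 145, 64.9 and 593 in OFF-BC, against 13260 to 13840 in ON-BC. *Isl1* held 343, 162 and 1329, against 24420 to 28020, and *Prkca* 105, 66.1 and 533, against 6656 to 9037. The part of retained ON cells in the OFF-BC reads was not tested. Pigment cell markers summed to at most 72.2 normalized counts over their 7 genes in any library, and *Tyr*, the melanin enzyme gene, was at 0 in pan-BC, OFF-BC and blue cones.

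*Rab27a*, whose product docks melanosomes and secretory granules, ran the other way. It stood at 175, 216 and 227 in ON-BC, against 576, 478 and 529.7 in OFF-BC, with no overlap, and at 342, 244 and 316 in pan-BC, 317, 316 and 343 in rods, beside 376, 304 and 293 in blue cones. Every OFF-BC library was above every other library, and every ON-BC library below. The ON-BC minus OFF-BC difference did not pass the test against 1 log2 unit (log2 difference -1.36 ± 0.16 (SE), adjusted p = 0.22), whereas a test against no change gave an adjusted p of 5.18e-06. Its paralog *Rab27b*, at 20.6, 27.4 and 25.6 in ON-BC, against 49.2, 45.6 and 108 in OFF-BC, also missed the call (log2 difference -1.32 ± 0.33 (SE), adjusted p = 1), and passed only against no change (adjusted p = 0.00594). The highest of those values was in OFF-BC 3, the library rich in cone markers.

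The ATAC-seq regions around the starts of the same genes also showed few differences between the ON and OFF classes. A promoter region is here one whose centre lies no farther than 1000 bp before or 100 bp after a RefSeq start. In all, 64 such regions of 52 Rab genes were tested among 108448 regions. Shares of all regions are over those 108448, which include regions away from any start. Of the 64, 3 were called lower in ON-BC than in OFF-BC, where 2.8% of all regions were, and 0 were called higher, where 4.58% were; at an unadjusted p under 0.05, 0 were higher, and edgeR and DESeq2 also called 0 higher. The 3 belonged to *Rab27a*, *Rab43* and *Rab4a*. In a fit of ON-BC and OFF-BC alone with the replicate number as a block, the count was 1 rather than 3: *Rab4a* was kept (adjusted p = 0.0309), *Rab43* was not called (0.129), and the *Rab27a* region gave no value. Below are the 250 bases upstream of the start nearest to 4 of the regions described here, read from GRCm38 5' to 3' on the strand of the gene. *Rab38* and *Rab27a* are shown for the ON and OFF contrast, *Rab43* for a region called lower in ON-BC and more open in rods than in any bipolar library, and *Rab33b* for a region that was weak in rods alone. Capitals mark matches, on either strand, to TAATCC (the K50 homeodomain motif, bound by proteins such as OTX2 and CRX), to TAATTA or TAATTG (Q50 homeodomain) and to CANNTG (E-box, bound by basic helix-loop-helix proteins), which can overlap one another.
Rab38, chr7:88430023-88430272, plus strand: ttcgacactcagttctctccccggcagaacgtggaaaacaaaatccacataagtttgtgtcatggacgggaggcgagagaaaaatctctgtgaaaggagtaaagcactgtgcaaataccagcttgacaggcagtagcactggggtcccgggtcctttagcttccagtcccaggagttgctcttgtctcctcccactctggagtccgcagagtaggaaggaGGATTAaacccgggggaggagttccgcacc
Rab27a, second start, chr9:73063898-73064147, plus strand: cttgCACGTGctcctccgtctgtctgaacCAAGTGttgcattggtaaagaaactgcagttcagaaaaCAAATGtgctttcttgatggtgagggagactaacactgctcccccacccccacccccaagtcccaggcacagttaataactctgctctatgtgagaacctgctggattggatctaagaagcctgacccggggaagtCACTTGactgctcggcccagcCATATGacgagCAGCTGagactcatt
Rab43, chr6:87812165-87812414, minus strand: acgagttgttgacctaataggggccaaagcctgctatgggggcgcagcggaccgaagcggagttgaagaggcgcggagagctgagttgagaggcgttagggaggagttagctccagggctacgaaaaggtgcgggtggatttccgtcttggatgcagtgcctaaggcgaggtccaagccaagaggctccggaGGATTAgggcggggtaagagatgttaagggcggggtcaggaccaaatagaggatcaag
Rab33b, chr3:51483716-51483965, plus strand: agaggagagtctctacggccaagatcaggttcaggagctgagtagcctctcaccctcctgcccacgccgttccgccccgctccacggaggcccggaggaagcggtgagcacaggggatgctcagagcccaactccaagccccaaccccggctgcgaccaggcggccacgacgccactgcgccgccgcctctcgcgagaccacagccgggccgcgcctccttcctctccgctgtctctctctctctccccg

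The *Rab38* and *Rab43* stretches each hold 1 K50 match, the *Rab27a* stretch holds 6 E-box matches, and the *Rab33b* stretch holds none of these letters. Over the 60 promoters of 48 Rab genes in the RefSeq promoter table, taken over the same 250 bases, the K50 letters were present in 3 (5.0%), the Q50 letters in 2 (3.33%) and an E-box in 38 (63.3%). Among all 32851 promoters the shares were 6.25%, 11.3% and 66.2%. Of the Rab promoters in that table, only starts of *Rab42* and *Rab43* held the K50 letters, and the printed *Rab38* stretch is not among the 60. These matches describe the letters only.

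*Rab27a* had a region at each of 2 starts, and only one passed a comparison. The region 92 bp upstream of the second start (chr9:73063957-73064156), largely within the stretch printed above, held 0 and 0 normalized counts in ON-BC, against 24.2 and 10.7 in OFF-BC (adjusted p = 0.00924). It held 5.6 and 6.84 in pan-BC, beside 3.12 and 0 in rods. Blue cones held 28.5 and 36.9, and green cones 27.7 and 14.1. Both ON-BC libraries and one rod library thus had no read there, and the blue cone libraries had the most. The call was lost without OFF-BC 1 (adjusted p = 0.112), with a pseudocount of 8 (0.336) and in DESeq2 (0.0538), and over 13 alternatives the adjusted p ran from 0.000732 to 0.336. The region 539 bp upstream of the first start (chr9:73044172-73044371) ranged only from 70.4 to 107 over the 12 libraries and passed no comparison.

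*Rab38* had 1 promoter region, centred 12 bp past the start (chr7:88430186-88430385). It held 161 and 145 in ON-BC and 128 and 162 in pan-BC against 90.3 and 38.9 in OFF-BC, beside 15.5 and 14.4 in blue cones, 16.9 and 15.5 in green cones and 0 and 0 in rods. ON-BC lay above OFF-BC, as in the RNA, but the difference was not called (log2 difference 1.35 ± 0.43 (SE), adjusted p = 0.807). Open chromatin at this start was measured in the OFF-BC ATAC-seq libraries, while the OFF-BC RNA-seq libraries, which are separate samples, held few *Rab38* reads. The region was lower in rods than in blue cones (adjusted p = 4.91e-05) although *Rab38* RNA was near 0 in both. The call between rods and blue cones rested on low counts and was lost with a pseudocount of 8 (log2 difference -1.52, adjusted p = 0.492), 1 of 14 alternatives.

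At *Rab43*, whose product acts at the Golgi, the region 13 bp upstream of the start held 23.9 and 17.6 in ON-BC, against 83.5 and 81.8 in OFF-BC (log2 difference -1.96 ± 0.20 (SE), adjusted p = 0.00352), with 831 and 778 in rods. The call was lost in DESeq2 (adjusted p = 0.0637) and when the 2 populations were fitted alone (0.116, or 0.129 with a replicate block), out of 15 alternatives that gave adjusted p from 4.7e-06 to 0.129. A second *Rab43* region, 49 bp upstream of another start (chr6:87811729-87811928), held 187 and 252 in ON-BC, against 237 and 242 in OFF-BC, and was not called. *Rab43* RNA did not follow the called region, at 81.5, 119.5 and 75.9 in ON-BC, against 73.8, 86.5 and 81.7 in OFF-BC. At *Rab4a*, a recycling Rab, the region 159 bp upstream held 32.9 and 39.5 in ON-BC, against 162 and 142 in OFF-BC (log2 difference -2.04 ± 0.19 (SE), adjusted p = 0.0015). *Rab4a* RNA was 613, 443 and 949 in ON-BC, against 1218, 809 and 1108 in OFF-BC, with overlap (log2 difference -0.69 ± 0.23 (SE), adjusted p = 1). At the called *Rab43* and *Rab4a* regions all photoreceptor libraries exceeded all OFF-BC libraries, with 499 and 479 in rods for *Rab4a*.

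**Figure D2:**
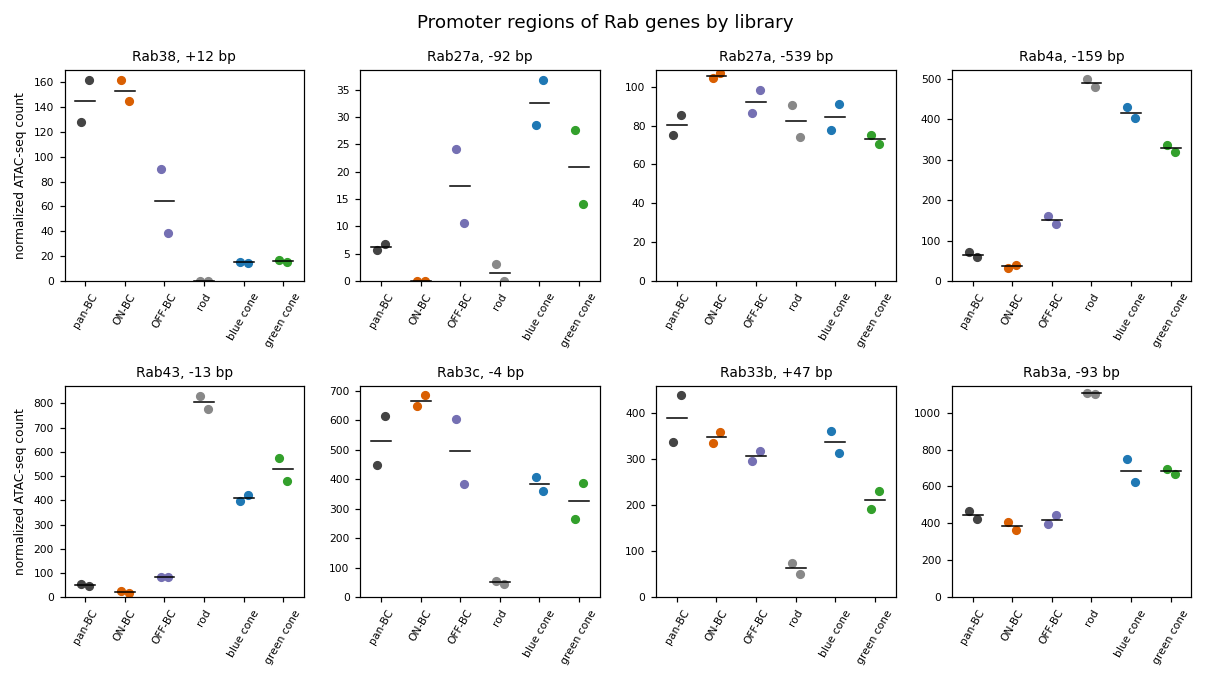
Normalized ATAC-seq counts in selected promoter regions of Rab genes, 1 panel per region and 1 point per library (2 per population) and a line at each mean, with the distance of the region from the start in bp. The *Rab27a* region near the second start is at 0 in both ON-BC libraries, and the *Rab43* and *Rab4a* regions are lowest in ON-BC and highest in rods.

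Against rods, bipolar cells differed in many members of the family. Of the 53 tested genes, 18 were higher in pan-BC (33.96%), where 27.8% of all genes were called, and 8 were lower (15.09%), where 15.8% of all genes were. The median difference was 0.83, beside 0.21 over all genes. With values scaled to library totals the median of all genes moved to 0.55, and 20 Rab genes were called higher and 5 lower. Of all 14024 genes, that scaling called 4499 higher and 1578 lower, beside 3901 and 2211 on the normalized counts. Against blue cones the counts were 8 higher (15.09%) and 7 lower (13.21%), beside 22.7% and 13.7% of all genes, with a median of -0.11 beside 0.16. Scaling to library totals moved the median of all genes to 0.44 and gave 9 higher and 5 lower, and TMM scaling gave 6 and 7. Of all genes, 3702 were called higher and 1464 lower with library totals, and 3021 and 2079 with TMM scaling. On the normalized counts these were 3177 and 1915. The share of Rab genes called lower was thus close to that of all genes in both comparisons.

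**Figure D3:**
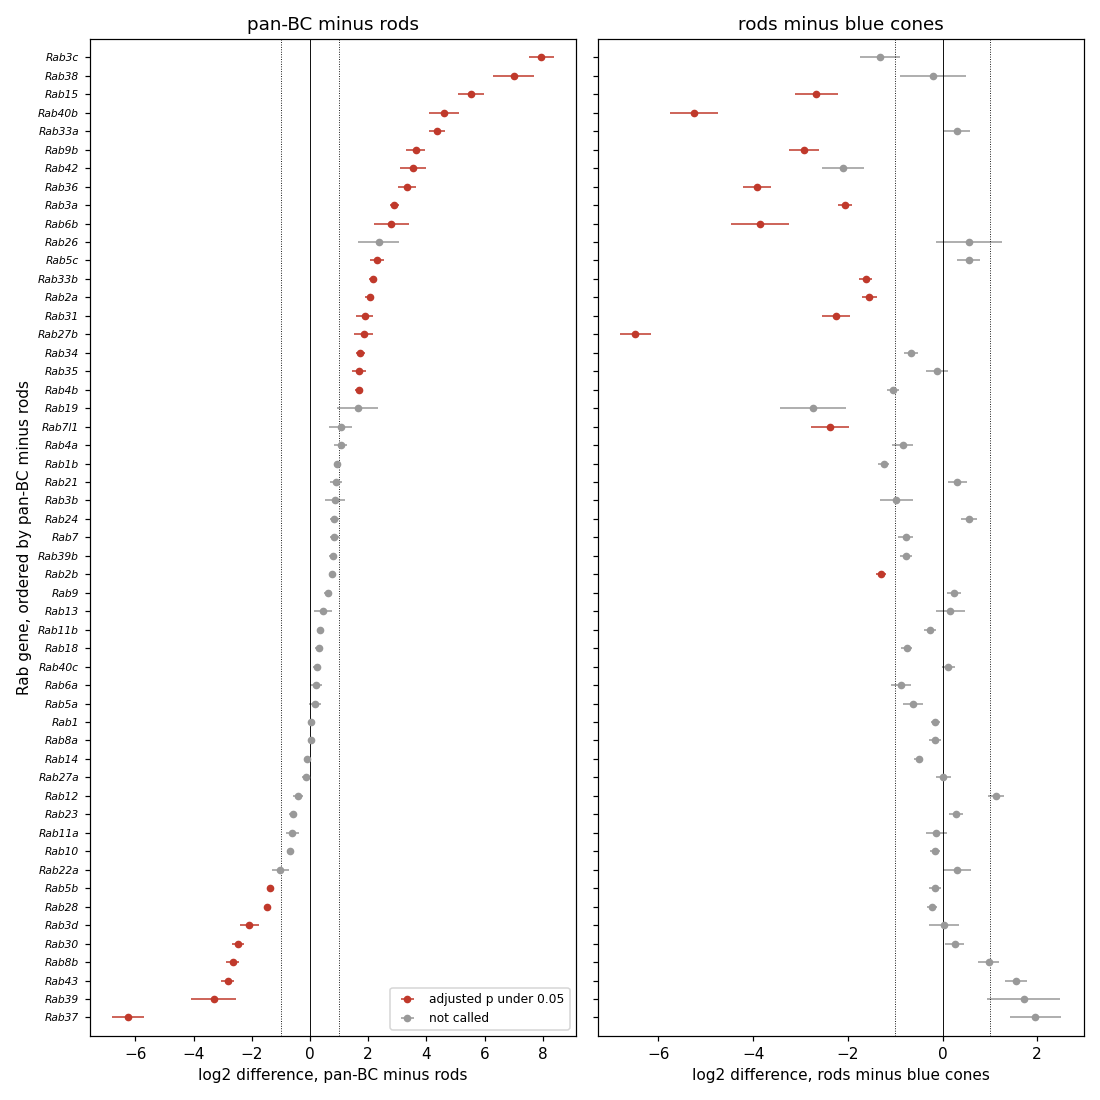
Log2 differences (horizontal axes) of the 53 tested Rab genes for pan-BC minus rods (left panel) and rods minus blue cones (right panel), as points with bars of 1 SE, in the order of the left panel and red where called, with dotted lines at 1 and -1. *Rab3c* and *Rab38* lie farthest right and *Rab37* farthest left against rods, and the red points of the right panel, led by *Rab27b*, all lie left of 0.

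Among the 9 tested genes of secretory and synaptic vesicles, 4 were higher and 2 lower in pan-BC when set against rods, and 3 were higher and 3 lower when set against blue cones. For this and the later counts by compartment, the shares of all genes were 27.8% higher and 15.8% lower against rods. Against blue cones they were 22.7% and 13.7%. The compartment groups are small, and their counts were not tested against these shares. *Rab3c* (chr13:110054187-110280996, minus strand), a paralog of *Rab3a* on synaptic vesicles, stood at 2700, 2449 and 2454 in pan-BC, 2129, 2536 and 2770 in ON-BC, against 2605, 2279 and 2184 in OFF-BC. Rods held 2.91, 11.3 and 21.6 and blue cones 39.9, 20.5 and 18.5, so the lowest bipolar value was 2129 and the highest photoreceptor value 39.9. The log2 difference was 7.95 ± 0.42, adjusted p = 1.43e-10 against rods and 6.62 ± 0.42, adjusted p = 4.85e-09 against blue cones. Per kb, *Rab3c* reached 291 ± 16.4 in pan-BC, far below *Rab3a*.

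*Rab3a* itself was 13720, 13720 and 12060 in pan-BC, 1648, 1850 and 1796 in rods, against 5837, 7679 and 8857 in blue cones, with ON-BC (13230, 13360 and 16140) and OFF-BC (13720, 10990 and 12700) close to pan-BC. The 3 populations did not overlap, and rods were lowest. The pan-BC mean was 7.46 times that of rods (log2 difference 2.90 ± 0.14 (SE), adjusted p = 2.62e-09) and 1.76 times that of blue cones, a difference that was not called (0.84 ± 0.14, adjusted p = 1) and that passed against no change (5.76e-05). Of the other 2 paralogs, *Rab3d* was lower in pan-BC, at 28.7, 41.4 and 62.4 against 197, 176 and 173 in rods (log2 difference -2.08 ± 0.32 (SE), adjusted p = 0.0045) and 208, 228 and 118 in blue cones (-2.05 ± 0.32, adjusted p = 0.00682); against rods the call was just lost with library totals (adjusted p = 0.0504). *Rab3b* was low, at 22.3, 18.2 and 17.1 in pan-BC, 12.6, 14.3 and 5.4 in rods, with 18.8, 19.7 and 23.7 in blue cones. It was highest in the separately sorted classes, with 41.3, 34.3 and 47.2 in ON-BC, against 38, 46.9 and 47.5 in OFF-BC.

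The *Rab27* pair split. *Rab27a* ranged from 244 to 376 normalized counts over pan-BC, rods and blue cones and passed neither comparison. *Rab27b*, which acts in exocytosis of dense granules and synaptic vesicles, stood at 1743, 1505 and 1981 in blue cones, 14.6, 25.6 and 16.2 in rods and 84, 48.4 and 78.3 in pan-BC. It was lower in pan-BC than in blue cones (log2 difference -4.64 ± 0.33 (SE), adjusted p = 4.21e-08) and higher than in rods (1.85 ± 0.33, adjusted p = 0.0234). The call against rods was lost without pan-BC 1, pan-BC 3, rod 1 or rod 3 (adjusted p 0.0643 to 0.0900) and with a pseudocount of 8 (0.0808). As a share of the blue cone mean, *Rab27b* in pan-BC was 4.82%, 2.78% and 4.49%, beside 4.10%, 2.51% and 3.49% for the summed cone markers. In OFF-BC the shares were 2.82%, 2.62% and 6.21%, beside 1.39%, 1.29% and 5.60%. Most of the cone marker sum in OFF-BC 1 and OFF-BC 2 was *Gnat2*, at 16560 and 13810, against 143500 to 184500 in blue cones. *Opn1sw* held 4477 and 4314 there, against 1108000 to 1302000 in blue cones. The part of cone RNA in these values was not tested.

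*Rab37*, a Rab of secretory granules, was almost confined to photoreceptors among these libraries, at 232, 149.6 and 162 in rods, beside 36.1, 43.2 and 57.7 in blue cones. Pan-BC held 2.13, 3.03 and 0, ON-BC 1.03, 1.96 and 3.08 and OFF-BC 1.12, 0 and 2.21. Pan-BC was lower than rods (adjusted p = 1.41e-07) and lower than blue cones (adjusted p = 4.59e-05). *Rab15*, of the recycling and early endosome and of secretion in neurons, was the reverse, at 64.9, 54.5 and 79.5 in pan-BC, 1.94, 0 and 0 in rods, against 9.03, 4.55 and 12.6 in blue cones. Pan-BC exceeded rods (adjusted p = 8.52e-08) and blue cones (log2 difference 2.87 ± 0.45 (SE), adjusted p = 0.0015). *Rab26*, a Rab of synaptic vesicle turnover, was low at 36.2, 26.2 and 29.4 in pan-BC, 6.79, 2.05 and 8.64 in rods, with 7.52, 0 and 7.4 in blue cones. It was called against blue cones alone (log2 difference 2.92 ± 0.69 (SE), adjusted p = 0.0205), and not without pan-BC 1 (adjusted p = 0.0595) or blue cone 2 (0.150); over 16 alternatives the adjusted p ran from 0.00112 to 0.150.

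**Figure D4:**
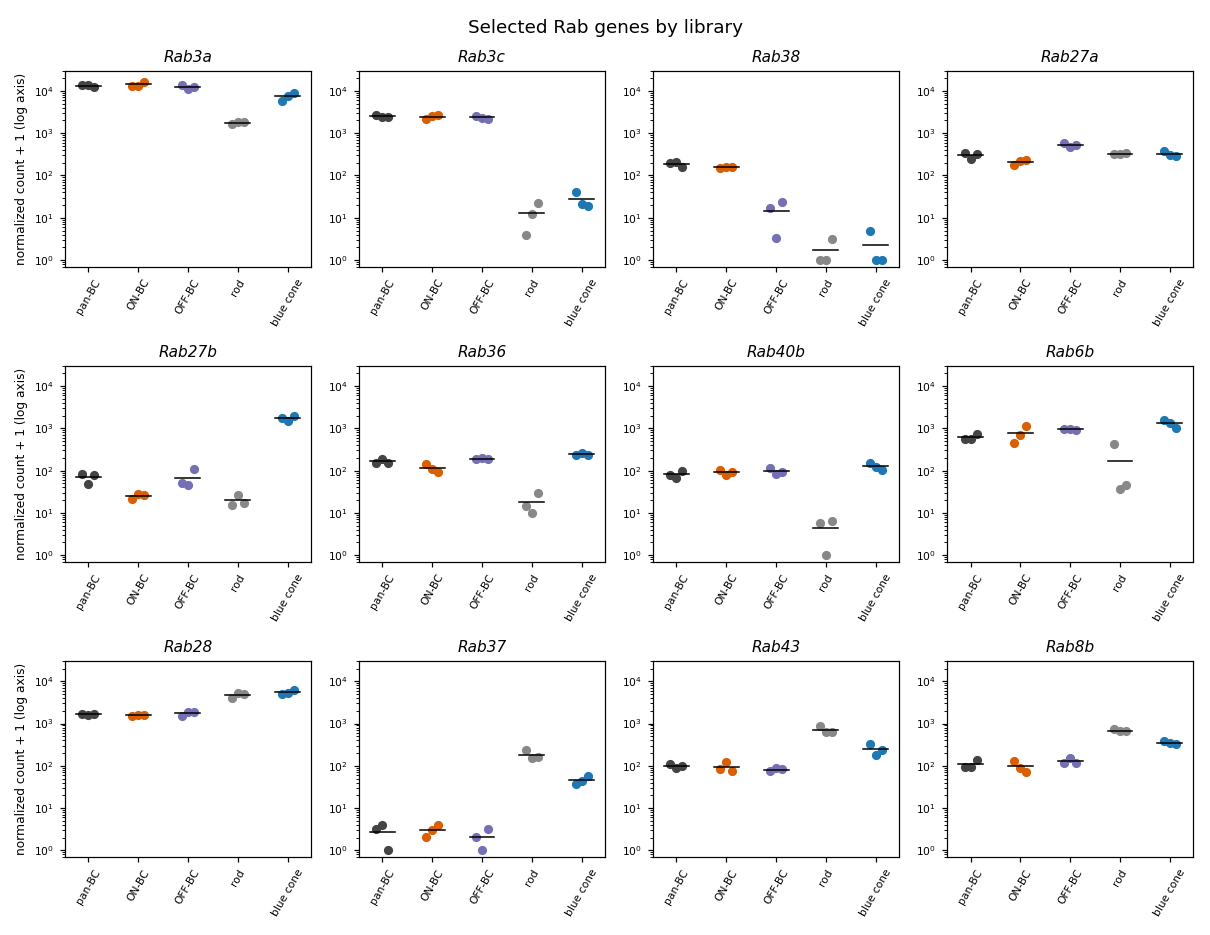
Normalized RNA-seq counts of selected Rab genes on a log axis of value + 1, 1 panel per gene and 1 point per library (3 per population), with a line at each mean. *Rab27b* is at 1505 to 1981 in blue cones and at most 108 elsewhere, *Rab37* reaches at most 3.08 in bipolar libraries, and *Rab6b* in rod 1 (423) stands apart from the other 2 rod libraries.

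Of the 6 tested early endosome genes 2 were higher and 1 was lower against rods, and 1 and 1 against blue cones. *Rab5c*, one of 3 RAB5 genes that drive fusion of early endosomes, stood at 960.5, 937 and 879.7 in pan-BC, 146, 277 and 164 in rods, beside 108, 189.7 and 102 in blue cones (log2 difference 2.29 ± 0.24 (SE), adjusted p = 0.000121 against rods, and 2.85 ± 0.24, adjusted p = 3.87e-06 against blue cones). *Rab5b* was lower in pan-BC, at 507, 589 and 570.2, than in rods (1361, 1419 and 1509) and blue cones (1576, 1800 and 1431). Its differences were -1.36 ± 0.12, adjusted p = 0.00946, and -1.52 ± 0.12, adjusted p = 0.000875, and both calls were lost with library totals (adjusted p = 0.782 and 0.0676). *Rab5a* passed neither test, at 90.4, 117 and 82 in pan-BC and 78.6, 79.9 and 94 in rods. *Rab5c* and *Rab5b* did not overlap between pan-BC and either photoreceptor population.

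Of the 6 tested recycling Rabs, 2 exceeded rods in pan-BC (*Rab4b* and *Rab35*) and the other 4 passed in neither direction. *Rab35*, which returns cargo from endosomes to the plasma membrane, stood at 167, 234 and 206 in pan-BC, 56.3, 47.1 and 87.5 in rods, against 62.4, 85.8 and 56.2 in blue cones. It was called against rods (log2 difference 1.69 ± 0.24 (SE), adjusted p = 0.0125) and against blue cones (1.56 ± 0.24, adjusted p = 0.0406), but single libraries decided both calls: the first was lost without pan-BC 2 or rod 2 (adjusted p = 0.0576 and 0.0677), and the second without pan-BC 2, pan-BC 3, blue cone 1 or blue cone 3 (0.0887 to 0.144). Over 16 alternatives the second call was lost in 7. *Rab11a* and *Rab11b*, the main recycling Rabs, passed neither comparison, with *Rab11a* at 1886, 1170 and 1867 in pan-BC, 2327, 2435 and 2565 in rods, with 2119, 2707 and 3349 in blue cones. *Rab11b* lay at 2172, 2212 and 2135, 1611, 1801 and 1741 and 2047, 2295 and 1860 in the same order.

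Of the 10 tested genes of late endosomes, lysosomes and related organelles, 5 were higher in pan-BC against rods and 2 against blue cones, and the others passed in neither direction. *Rab38* is described above, with adjusted p = 6.15e-07 against rods and 1.46e-06 against blue cones. *Rab9b*, a paralog of the *Rab9* gene of retrieval from late endosomes to the Golgi, stood at 89.3, 96.8 and 56.3 in pan-BC and 5.82, 5.12 and 5.4 in rods (log2 difference 3.63 ± 0.32 (SE), adjusted p = 8.09e-07). *Rab36*, of late endosome and lysosome positioning, stood at 154, 191 and 147 and 13.6, 9.22 and 28.1 (log2 difference 3.33 ± 0.30 (SE), adjusted p = 1.61e-06), and *Rab42* at 57.4, 56.5 and 59.95 and 4.85, 1.02 and 9.73 (log2 difference 3.55 ± 0.45 (SE), adjusted p = 5.96e-05). The groups did not overlap for any of these. *Rab24*, linked to autophagy, was called against blue cones, at 357, 375 and 401 in pan-BC and 170, 136 and 125 in blue cones (log2 difference 1.40 ± 0.16 (SE), adjusted p = 0.0348); the call was lost without pan-BC 2, pan-BC 3, blue cone 2 or blue cone 3 (adjusted p 0.0684 to 0.124) and in 8 of 16 alternatives in all.

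The endoplasmic reticulum and Golgi held the most tested genes, 14, of which pan-BC exceeded rods in 4 and fell below them in 3, and exceeded and fell below blue cones in 1 each. *Rab33a* (chrX:48513663-48530240, plus strand), of the Golgi and of anterograde vesicles in axons, was the clearest, at 603, 614 and 440.5 in pan-BC, 486, 462 and 560.2 in ON-BC, against 634, 624 and 749 in OFF-BC. Rods held 33, 16.4 and 30.3 and blue cones 24.8, 12.9 and 26.6, against at least 440 in any bipolar library. The differences were 4.37 ± 0.28, adjusted p = 6.86e-09, and 4.67 ± 0.28, adjusted p = 4.93e-09. *Rab30*, a Golgi Rab, was lower in pan-BC (258, 172 and 228) than in rods (959, 1317 and 1367) and blue cones (934, 1003 and 1084), with differences of -2.47 ± 0.20, adjusted p = 4.57e-06, and -2.21 ± 0.20, adjusted p = 5.23e-05. *Rab43* was lower than in rods alone, at 108, 86.8 and 97.9 against 885, 617 and 622 (log2 difference -2.83 ± 0.23 (SE), adjusted p = 1.7e-06), with 322, 179 and 235 in blue cones. *Rab39* was low everywhere, at 0, 8.07 and 9.79 in pan-BC and 42.7, 52.2 and 39.98 in rods (log2 difference -3.31 ± 0.77 (SE), adjusted p = 0.0109), and was not called without pan-BC 1 (-2.21, adjusted p = 0.0833).

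*Rab6b*, the neuron-rich RAB6 of retrograde Golgi traffic, rested on its rod libraries. It stood at 571, 572 and 739 in pan-BC and 423, 35.9 and 45.4 in rods (log2 difference 2.80 ± 0.60 (SE), adjusted p = 0.0114). Rod 1 stood far above the other 2 rod libraries. Without rod 1 the difference was 3.92 (adjusted p = 1.07e-07), and without rod 2 or rod 3 it was not called (adjusted p = 0.0813 and 0.0664), as in edgeR (0.0534) and DESeq2 (0.457), the highest of 16 alternatives. The ubiquitous *Rab6a* passed neither comparison, at 533, 574 and 679 in pan-BC and 523, 553 and 471 in rods, and 13.8% of its exon bases are shared with *Mrpl48* on the opposite strand.

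Of the 6 tested genes of post-Golgi and ciliary traffic, 2 were lower in pan-BC than in both photoreceptor populations, and the other 4 passed in neither direction. *Rab28* (chr5:41624973-41708193, minus strand) stood at 1714, 1619 and 1712 in pan-BC, 4061, 5167 and 4891 in rods, beside 4930, 5397 and 6137 in blue cones. No bipolar library exceeded 1916, and no photoreceptor library fell below 4061. Rods held 2.8 times the pan-BC mean (log2 difference -1.48 ± 0.11 (SE), adjusted p = 0.00095), and blue cones 3.26 times (-1.70 ± 0.11, adjusted p = 3.42e-05). Against rods the call was lost with library totals (-1.13, adjusted p = 0.253) and kept in the other 15 of 16 alternatives. *Rab8b*, a paralog of *Rab8a*, which carries cargo such as rhodopsin to the cilium, stood at 94.7, 91.8 and 139.5, 725, 664 and 656 and 384, 340 and 319 in the same order (log2 difference -2.66 ± 0.22 (SE), adjusted p = 2.78e-06 against rods, and -1.69 ± 0.22, adjusted p = 0.0104 against blue cones). The second call was lost with library totals (adjusted p = 0.139). *Rab8a* was level, at 2126, 2455 and 2142 in pan-BC, 2028, 2297 and 2185 in rods, against 2056, 2504 and 2725 in blue cones. Rod markers in pan-BC were 1.57% to 1.98% of their rod mean, and the part of rod RNA in the pan-BC values was not tested. Of the 2 tested genes with a SOCS box, which binds ubiquitin ligases, *Rab40b* was higher in pan-BC (79.8, 65.6 and 99.1) than in rods (4.85, 0 and 5.4), with 153, 124 and 104 in blue cones (log2 difference 4.60 ± 0.51 (SE), adjusted p = 5.13e-06 against rods).

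Between rods and blue cones, 0 of the 53 genes were called higher in rods, where 4.63% of all genes were, and 12 (22.64%) were called lower, where 11.3% of all genes were. At an unadjusted p under 0.05, 2 genes (*Rab37* and *Rab43*) were higher in rods, and edgeR called 2 and DESeq2 1. The median difference was -0.26, beside -0.005 over all genes. *Rab27b* differed most, with -6.49 ± 0.33, adjusted p = 3.72e-10, and the rod libraries held at most 25.6 normalized counts against at least 1505 in blue cones. *Rab40b* (-5.24 ± 0.51, adjusted p = 2.55e-06) and *Rab36* (-3.91 ± 0.30, adjusted p = 3.78e-07, 238, 256 and 238 in blue cones) followed. *Rab6b* came next, at 1550, 1350 and 1048 in blue cones, with -3.85 ± 0.60, adjusted p = 0.00111; leaving out rod 1, which stands apart, did not end the call, whereas DESeq2 did (0.0511). *Rab3a* was also lower in rods (-2.06 ± 0.14, adjusted p = 1.27e-05).

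Across the 3 comparisons that involve photoreceptors, 23 of the 53 genes passed none (43.4%, beside 47.1% of all genes tested). *Rab3c*, *Rab5c*, *Rab33a*, *Rab35* and *Rab38* were higher in pan-BC than in both photoreceptor populations and did not pass between rods and blue cones, a pattern of 9.43% of the Rab genes and 15.4% of all genes. *Rab15* was also higher in both but lower in rods than in blue cones, the last call being lost with a pseudocount of 8 (-0.93, adjusted p = 1.0) and in DESeq2 (0.0899). *Rab3d*, *Rab5b*, *Rab8b*, *Rab28*, *Rab30* and *Rab37* were lower than in both (11.3%, beside 7.86%). Another 8 genes (*Rab2a*, *Rab3a*, *Rab6b*, *Rab9b*, *Rab31*, *Rab33b*, *Rab36* and *Rab40b*) were higher in pan-BC than in rods, did not pass against blue cones, and were lower in rods than in blue cones (15.1%, beside 4.55% of all genes). Of these, *Rab2a* was no longer called between rods and blue cones without blue cone 3 (adjusted p = 0.0970) or rod 3 (0.0776) or when those populations were fitted alone (0.0538), and *Rab31* was no longer called against rods without pan-BC 1 (0.0576) or rod 3 (0.0510). *Rab27b* alone was higher than in rods and lower than in blue cones.

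Promoter accessibility was compared over the same populations. The shares and medians of all regions given here include regions away from any start. They were not computed for promoter regions alone, so the 2 kinds of region are not separated in them. Against rods, 10 of the 64 promoter regions were higher in pan-BC, where 40.3% of all regions were, and 11 were lower, where 11.2% were, with a median of -0.26 beside 1.16 over all regions. With library totals the counts were 10 and 7 and the median of all regions 1.29, and with TMM scaling 10 and 18 and 0.97. Of all 108448 regions, 44923 were higher and 10255 lower with library totals, and 41681 and 14786 with TMM scaling. On the normalized counts these were 43735 and 12179. Against blue cones 8 were higher and 4 lower, beside 28.8% and 7.13% of all regions, with a median of -0.16 beside 0.54. These counts became 6 and 5 with library totals and 5 and 6 with TMM scaling. Of all regions, 29200 were higher and 9198 lower with library totals, and 27803 and 10418 with TMM scaling. On the normalized counts these were 31235 and 7731. Between rods and blue cones 2 were higher in rods and 6 lower, beside 1.46% and 8.56%. The median of the 64 regions pointed the other way, at 0.27 beside -0.20 over all regions. Tested against no change, 23 were higher in rods and 10 lower, beside 14908 and 22649 of all regions.

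Of the genes called in both assays against rods, 11 had the same direction and 2 the opposite one, and the same count was not made over all genes. Of the 11, the region call at *Rab3d* (41 bp upstream) was lost with library totals and without pan-BC 1, pan-BC 2, rod 1 or rod 2 (adjusted p 0.0631 to 0.104). At *Rab37* (63 bp upstream) it was lost with a pseudocount of 0.25 (0.0867) and without pan-BC 2 (0.230) or rod 2 (0.0854), and at *Rab39* (23 bp upstream) without rod 1 (0.106). The region 4 bp upstream of the *Rab3c* start (chr13:110280111-110280310) held 447 and 612 in pan-BC and 56.1 and 46.1 in rods (log2 difference 3.34 ± 0.22 (SE), adjusted p = 8.85e-08). In blue cones it held 407 and 361, overlapping OFF-BC (605 and 384), although *Rab3c* RNA reached at most 39.9 normalized counts there. Rods and blue cones differed at this region (-2.89 ± 0.22, adjusted p = 5.45e-06). The region 47 bp past the start of *Rab33b*, a Golgi Rab linked to autophagosome formation whose upstream stretch is printed above, held 74 and 51.5 in rods and 338 and 440.2, 361 and 313 and 193 and 231 in pan-BC, blue cones and green cones (log2 difference 2.62 ± 0.20 (SE), adjusted p = 1.49e-06, pan-BC against rods). *Rab33b* RNA was also lowest in rods, at 163, 168 and 128 against 676, 710.2 and 668 in pan-BC and 442, 474 and 493 in blue cones; the gene was chosen for printing after its values were seen. At *Rab43*, 13 bp upstream, pan-BC held 53.6 and 47.9 and rods 831 and 778 (log2 difference -3.96 ± 0.20 (SE), adjusted p = 2.53e-09), the same direction as its RNA.

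*Rab3a* was one of the 2 exceptions. Its region 93 bp upstream held 468 and 421 in pan-BC, 1107 and 1103 in rods, with 749.9 and 622 in blue cones, lowest where its RNA was highest (log2 difference -1.31 ± 0.14 (SE), adjusted p = 0.0331, pan-BC against rods). The call was lost with library totals (adjusted p = 0.251) and without pan-BC 2 (0.141), rod 1 (0.109) or rod 2 (0.103), 4 of 14 alternatives, over which the adjusted p ran from 1.65e-07 to 0.251. *Rab5c* was the other, with 382 and 289.6 in pan-BC and 959 and 955 in rods 68 bp upstream (log2 difference -1.52 ± 0.16 (SE), adjusted p = 0.00466), lost with library totals (0.0543) and without pan-BC 2 (0.0757). *Rab32*, a relative of *Rab38* that was too low in RNA to be tested, had an open region 59 bp upstream in bipolar cells, with 146 and 209 in pan-BC, 215 and 205 in ON-BC, against 135 and 84.7 in OFF-BC. Rods held 2.34 and 0, blue cones 15.5 and 15.2 and green cones 17.7 and 21.1 (adjusted p = 1.78e-08 for pan-BC against rods). *Rab28* opened toward bipolar cells, against its RNA, in the region 4 bp upstream, with 378 and 432 in pan-BC and 157 and 134 in blue cones (log2 difference 1.48 ± 0.17 (SE), adjusted p = 0.0223), a call lost in edgeR (0.105), with both other scalings and without pan-BC 2 or blue cone 2 (0.129 and 0.156).

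The proteins that load, switch and read Rabs were examined as a list of 120 partner genes, of which 110 were tested. In pan-BC against rods 19 were higher and 21 lower, beside 27.8% and 15.8% of all genes. The same shares stand beside the counts of each list below. Between ON-BC and OFF-BC 2 were higher and 1 lower, beside 2.95% and 3.6% of all genes. In the list of delivery and prenylation, whose members put Rabs on membranes and take them off, *Rabac1* was higher in pan-BC against rods (1.35 ± 0.15).

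Of the 31 tested exchange factors, which switch Rabs on, 5 were higher and 8 lower in pan-BC than in rods. *Rabgef1*, which encodes the RAB5 activator Rabex-5, stood at 39650, 38940 and 36690 normalized counts in rods but at 1248, 1170 and 1410 in pan-BC, with blue cones at 5411, 4897 and 4758. The rod level was 30.1 times that of pan-BC (log2 difference -4.92 ± 0.12 (SE), adjusted p = 3.63e-14), and rods also exceeded blue cones (2.94 ± 0.12, adjusted p = 6.2e-10). The other 2 of the lowest 3 were *Dennd2c*, at 0, 1.01 and 0 against 54.3, 22.5 and 56.2 in rods, and *Rab3il1*, an exchange factor for RAB8 (-3.26 ± 0.40). The 3 highest were *Dennd5b* (3.86 ± 0.15), *Rin2*, a RAB5 exchange factor (3.73 ± 0.37), and *Rab3ip*, which encodes the RAB8 exchange factor Rabin8 (2.35 ± 0.19). *Rin2* was also the single partner lower in ON-BC, at 28.9, 47 and 27.7 against 321, 422 and 286 in OFF-BC (log2 difference -3.30 ± 0.37 (SE), adjusted p = 0.000221).

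Of the 34 GTPase-activating proteins, which switch Rabs off, 3 were higher (*Tbc1d16*, 6.23 ± 0.50; *Tbc1d1*, 5.71 ± 0.51; *Sgsm2*, 1.96 ± 0.19) and 7 lower. The 3 lowest were *Tbc1d30* (-3.51 ± 0.27), which acts on RAB8, *Tbc1d8* (-3.48 ± 0.13) and *Tbc1d24* (-3.46 ± 0.14). Of the 38 tested effectors, which carry out what an active Rab directs, 9 were higher and 6 lower. *Rims1*, the active zone scaffold that binds RAB3, stood at 174, 127 and 150.5 in pan-BC and 0, 1.02 and 0 in rods, where only 1 library had reads. *Rph3a*, which encodes the RAB3 and RAB27 effector rabphilin, stood at 805, 945 and 663 in ON-BC against 29.1, 44.5 and 69.5 in OFF-BC, and at 2.91, 5.12 and 6.48 in rods, beside 6.77, 6.83 and 6.66 in blue cones. It was higher in ON-BC than in OFF-BC (log2 difference 4.12 ± 0.32 (SE), adjusted p = 1.99e-06), and pan-BC held 502, 373 and 484 (6.32 ± 0.32 against rods). *Micall1*, a RAB8 and RAB35 effector of recycling endosomes, was the other partner higher in ON-BC, at 399, 359.6 and 336 against 93.9, 115 and 127 (log2 difference 1.70 ± 0.20 (SE), adjusted p = 0.0266). On the other side, *Optn*, the RAB8 effector optineurin, stood at 279.7, 224 and 210.4 in pan-BC and 4361, 5710 and 5311 in rods (-4.42 ± 0.15). The RAB11 effector *Rab11fip1* stood at 0, 1.01 and 1.22 and 107, 129 and 129.7, and *Rph3al*, a RAB3 and RAB27 effector, at 5.32, 0 and 3.67 and 38.8, 61.5 and 47.5. *Rab11fip4*, the third highest effector, was at 46.8, 49.4 and 46.5 and 0.97, 4.1 and 4.32 (3.69 ± 0.42).

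**Figure D5:**
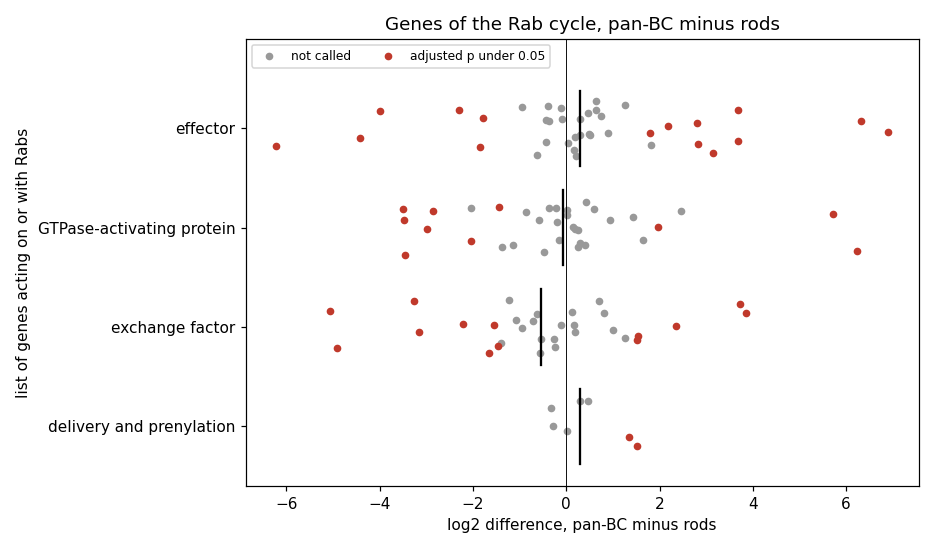
Log2 differences between pan-BC and rods (horizontal axis) of the tested partner genes in each list (vertical axis), 1 point per gene, red where called, with a black bar at each list median. Effectors spread the widest, from *Rab11fip1* at the left to *Rims1* and *Rph3a* at the right.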

How the data were processed

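RNA-seq (15 libraries) and ATAC-seq (12 libraries) signal values were used as deposited; 2 further green cone ATAC-seq samples were not used here. Per the labels and the study's methods, the authors aligned RNA reads with STAR, counted them per RefSeq gene, aligned ATAC-seq reads with Bowtie2, called regions with MACS2 on GRCm38 and divided the counts by a size factor for each library. Of 230384 RNA and 1212862 ATAC-seq values above 0, 100% came out as whole reads within 0.01. Genes and regions were filtered with filterByExpr on those reads (14024 and 108448 kept), and log2(value + 1) was fitted with limma (3.58.1, R 4.3.3), with 1 level per population over all libraries, treat against a log2 difference of 1 and Benjamini-Hochberg adjustment over all tested. edgeR (4.0.16) and DESeq2 (1.42.0) on the whole reads were alternatives.

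The Rab genes named are those called between ON-BC and OFF-BC, the 8 largest in each direction between pan-BC and each photoreceptor population, the 4 largest between rods and blue cones, and the *Rab3*, *Rab5*, *Rab6*, *Rab8*, *Rab11*, *Rab27* and *Rab28* families; any other was chosen after its values were seen. For partner genes, 3 in each direction per list were named, except for an item that is not reported here. The members and lists were chosen with earlier results of these data known. Exon lengths and starts are from RefSeq, which matched all 58 members. Same-numbered ON-BC and OFF-BC libraries share an age in the labels, which do not say that they share animals, and the correlations of their deviations from the group means were -0.0763, 0.222 and -0.0649 (RNA-seq); a fit with the number as a block was an alternative. Replicates are separate libraries, so p-values measure the spread between these libraries.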

Additional observations from a re-analysis of the deposited data

How the results depend on the processing

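Tested against no change rather than 1 log2 unit, the counts of Rab genes called were 45 (pan-BC and rods), 35 (pan-BC and blue cones), 7 (ON-BC and OFF-BC) and 31 (rods and blue cones), and those of promoter regions 43, 37, 13 and 33 in the same order. Of all 14024 genes, that test called 11156, 10704, 3783 and 8068 in this order. Of all 108448 regions it called 79210, 66171, 26416 and 37557. Between ON-BC and OFF-BC, the RNA count fell to 0 with a pseudocount of 0.25, and the ATAC-seq count was 1 in DESeq2, 1 in a fit of the 2 populations alone and 1 with the replicate block in that fit. Of all genes, that pseudocount called 790, and of all regions those fits called 4789, 7376 and 8822 in the same order. Leaving out 1 library at a time gave 23 to 25, 13 to 14, 0 to 1 and 11 to 13 Rab genes, and 16 to 24, 7 to 11, 2 to 3 and 6 to 8 promoter regions. Over all genes those fits called 5833 to 5959, 4760 to 5022, 790 to 882 and 2029 to 2376. Over all regions they called 47228 to 50800, 27793 to 33645, 4014 to 5950 and 7051 to 8340. With every library kept, 6112, 5092, 919 and 2231 of all genes and 55914, 38966, 8010 and 10871 of all regions were called. With the replicate number as a block over all libraries, 26, 15, 1 and 12 Rab genes and 21, 12, 3 and 8 promoter regions were called. These counts were unchanged from the fit without the block. Over all genes the blocked fit called 6088, 5055, 919 and 2214, and over all regions 55719, 38801, 7906 and 10658. In the blocked fit of ON-BC and OFF-BC alone the RNA count was 1, beside 1014 of all genes. The cause of these changes was not tested, except that a threshold of 0 admits more genes by construction. Alternative values were counted over the called Rab genes and regions and a few other Rab genes and regions named in the text. Partner genes were not included. Of the values counted, 107 lost a call, 7 gained one, 1481 kept both call and direction, and none turned its direction. ATAC-seq groups of 2 libraries and genes with few reads limit the precision.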
